A study of Homo sapiens with 12 samples.

Results

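The GRHL1 response of BE(2)-C cells was examined at 48 h after transfection, from 2 arrays of cells that had received the pTRex-GRHL1 plasmid and 2 arrays of cells with the empty vector pTRex-Dest30. The 4 arrays were taken by their titles in the normalized table, out of 12 arrays in the series, and all 12323 detected genes were compared. BE(2)-C is an established human neuroblastoma line, and every array of the series came from it. The remaining arrays hold the same plasmid pair at 24 h and 72 h, again on 2 arrays per group. All cells, controls included, received 2 µg of plasmid with the reagent effectene. The medium was DMEM, supplemented with 10% serum and 1% of non-essential amino acids. Cells were harvested within 72 h of transfection, and the sources used here do not give the share of cells that took up plasmid. Separate cultures are not stated for the 2 replicates of a group. The p-values therefore reflect the spread among these arrays, which may be technical.

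GRHL1 is a transcription factor of the grainyhead family, which binds a short palindromic DNA motif and is best known from surface epithelia. There, grainyhead factors maintain cell junctions and barrier proteins, among them desmosomal cadherins and components of the cornified envelope. Neuroblastoma cells derive from the sympathoadrenal neural crest, lack most of that program and express transcription factors of noradrenergic neurons. The series title places GRHL1 under negative control of the oncoprotein MYCN, whose gene is amplified in many neuroblastomas, and of the histone deacetylase HDAC3.

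The deposited scanner table and normalized table disagree on sample names. Of the 12 scanner columns, 7 matched a normalized column of another name best, and 3 of the 4 scanner columns named for 48 h matched an array of another group. All values below follow the names of the normalized table. The labelled line was checked against its defining markers first. All 10 adrenergic neuroblastoma markers with a named probe read above the detection limit on all 4 arrays, with summed normalized intensities of 66679 and 65679.5 in empty vector cells and 64423 and 63758 in GRHL1 cells. The detection limit was 128.4 units of normalized intensity. The noradrenaline-synthesising enzyme gene DBH read 8287 and 8284 with empty vector against 8001 and 8095 with GRHL1, and the lineage transcription factor gene PHOX2A read 795 and 824 against 781 and 854. The defining glial markers SOX10 and S100B, the leukocyte marker PTPRC, the endothelial markers VWF and CDH5, and the epithelial markers CDH1 and KRT5 lay below the limit on all 4 arrays. Of 6 glial markers, ERBB3 lay above the limit on both GRHL1 arrays (176 and 176) and below it with empty vector (121 and 124). Of 10 leukocyte and endothelial markers, CD68 and CD14 lay above the limit on every array. Of 8 epithelial markers, KRT19 lay above the limit on every array, at 255 and 238 with empty vector and 214 and 221 with GRHL1. EPCAM, KRT18 and ESRP1 lay above the limit on some of the arrays. Of 13 fibroblast markers, 6 read above the limit on all 4 arrays, and their list sums were 6913 and 6799 in empty vector cells against 5968 and 6014 in GRHL1 cells. COL1A2, COL3A1, PDGFRA, FAP and POSTN had no tested probe, and the part of that lower sum in the results below was not tested. Replicates correlated across genes with r = 0.9924 for empty vector and 0.9925 for GRHL1, and arrays of different plasmids with r between 0.9892 and 0.9906. The number of arrays limits the precision.

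At 48 h, 50 genes were higher and 5 lower with the GRHL1 plasmid (limma, Benjamini-Hochberg adjusted p under 0.05), which is 0.406% and 0.0406% of the genes tested and 0.446% together. Among the rises were the actin-binding gene AIF1L, the cell surface genes CD24, RHBDF1 and SLC44A2, the glutathione transferase genes GSTM1, GSTM2 and GSTM3, and JUP and CNFN, whose proteins are known from epithelial plaques and envelopes. The rises are described below by the known role of each gene, an order made after the values were seen, and no role was tested for enrichment. With genes below the limit on both empty vector arrays taken at the lower bound of their fold, 21 of the 50 rises had a log2 difference of at least 1 and the median was 0.90. Of the 21, 18 were among the 35 genes given by their fitted difference and 3 were at a bound. Bounds are of uncorrected intensity and fitted differences of background-corrected intensity, so this count and median mix 2 scales. In dim genes a fitted difference is wider than the ratio of the intensities printed beside it. The fitted values gave 32 and a median of 1.19, against -0.03 over all genes tested, but a fitted value against an array below the limit is no measured fold. The 5 falls, CDKN2B, PCDH10, AMHR2, CLDND2 and CA10, were shallower, between -0.97 and -0.60. In all 55 genes the 2 GRHL1 arrays lay outside the range of the 2 empty vector arrays. That held for 39.3% of all genes tested, 18.3% with GRHL1 higher and 21.1% with it lower, and the calls themselves favour it. At an unadjusted p under 0.05 there were 491 genes higher and 530 lower, 8.29% of the genes tested in all, so the smaller differences were not weighted towards rises. In bulk RNA, fewer cells carrying a transcript and less transcript per cell cannot be told apart.

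Calls at 48 h rest on few arrays. A total of 16 rises and 0 of the 5 falls passed the test with each of the 4 arrays left out in turn. Without replicate 1 of the empty vector 19 genes rose and 0 fell, and without replicate 2 of it 28 rose and 0 fell. Without replicate 1 or 2 of GRHL1, 25 rose and 3 fell, or 23 rose and 4 fell.

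**Figure D1:**
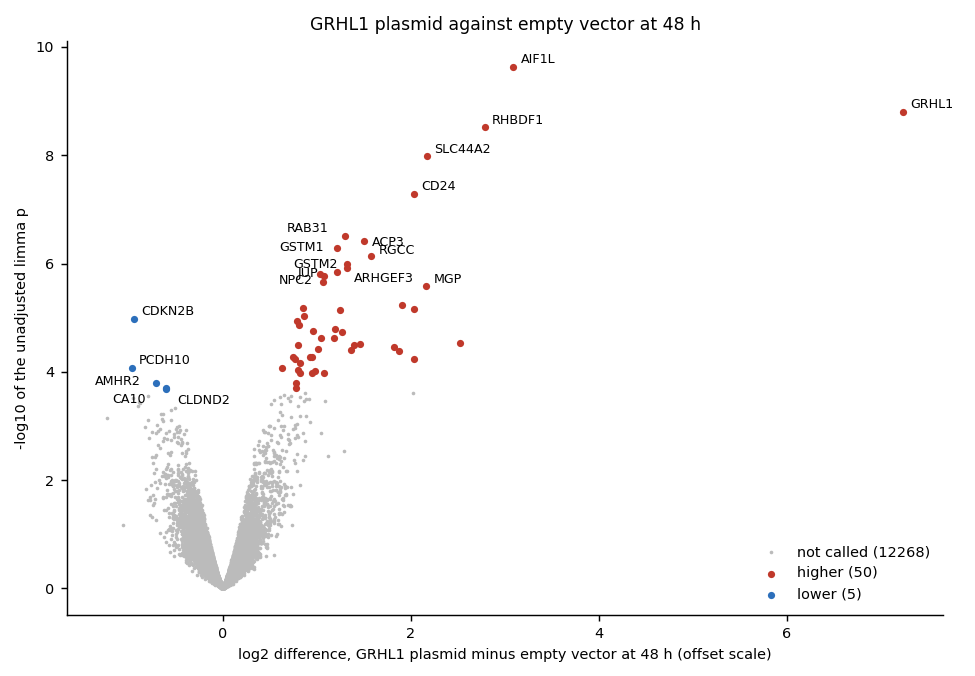
Each point is a gene, placed by its log2 difference at 48 h (GRHL1 plasmid minus empty vector, horizontal) and the -log10 of its unadjusted limma p (vertical). Red points are the 50 genes called higher, blue points the 5 called lower and grey points the rest. GRHL1 lies farthest to the right, at a fitted value that is no measured fold because its empty vector arrays were below the limit, followed by AIF1L at 3.09, while no call on the left lies below -0.97.

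The transfected gene itself read 6225 and 4669 units of normalized intensity on the 2 GRHL1 arrays and 115 and 92.3 on the empty vector arrays at probe ILMN_1651286. Both empty vector values lay below the detection limit, so GRHL1 was at least 42.0-fold higher (adjusted p = 9.72e-06). Under the scanner table's own names the same probe differed in the other direction, with a fitted log2 difference of -3.88. Probe ILMN_1769934 of GRHL1 read 129.7 and 120.1 with empty vector against 125 and 119 with GRHL1, and ILMN_1795767 read between 95.8 and 105 on the 4 arrays. These probes did not separate the groups and were detected on 1 of 12 arrays each. Whether the transfected transcript contains their target could not be looked up. MYCN read 25740.5 and 24205 with empty vector and 23909 and 24638 with GRHL1, a log2 difference of -0.04 (95% interval -0.25 to 0.17, adjusted p = 0.944), at 92.4% to 94.5% of the brightest value of each array. The dimmer MYCN probe ILMN_1653761 read 7853 and 7693 against 7384 and 7023, with a log2 difference of -0.11 ± 0.09 (SE). HDAC3 gave a log2 difference of 0.00 with an interval of -0.24 to 0.24 (adjusted p = 0.998). Its sign turned without empty vector replicate 1 and without GRHL1 replicate 2, and the sign of MYCN turned without empty vector replicate 1.

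GSTM1, GSTM2 and GSTM3, glutathione S-transferases of the mu class, which conjugate glutathione to electrophiles, rose at 48 h. The genes of the class lie side by side on chromosome 1 in the RefSeq gene table, in the order GSTM4, GSTM2, GSTM1, GSTM5 and GSTM3. GSTM1 read 1416 and 1440.0 with empty vector and 3248 and 3209 with GRHL1, a log2 difference of 1.21 ± 0.10 (SE, 2 arrays against 2, adjusted p = 0.000781). GSTM2 read 1211 and 1252 against 3206 and 2775, a difference of 1.32 ± 0.12 (adjusted p = 0.00127). Within each gene the replicates lay closer to each other than to the other group, which the calls themselves favour. GSTM3 went from 150.0 and 156 to 223 and 251 (0.96 ± 0.12, adjusted p = 0.00824). GSTM4 gave a difference of 0.93 ± 0.20 that did not pass the test (adjusted p = 0.112). Mu class transcripts are close in sequence, so a probe named for one may also read another, and the 4 values are not separate measurements with certainty. Second probes of GSTM1 and GSTM2 gave differences of 1.11 and 0.78. GSTM4 was added after its value was seen.

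The starts of the 3 called genes are printed because all 3 rose and because GSTM2 was the only called gene besides GRHL1, which was not searched, whose promoter window held the motif AACCNGTT. The windows run from 250 bases before to 50 bases after the gene start in RefSeq (GRCh38.p14), and capitals mark a match to AACCNGTT on either strand. The windows are chr1:109667807-109668106 (plus strand) for GSTM2, chr1:109687567-109687866 (plus strand) for GSTM1 and chr1:109740989-109741288 (minus strand) for GSTM3.
GSTM2: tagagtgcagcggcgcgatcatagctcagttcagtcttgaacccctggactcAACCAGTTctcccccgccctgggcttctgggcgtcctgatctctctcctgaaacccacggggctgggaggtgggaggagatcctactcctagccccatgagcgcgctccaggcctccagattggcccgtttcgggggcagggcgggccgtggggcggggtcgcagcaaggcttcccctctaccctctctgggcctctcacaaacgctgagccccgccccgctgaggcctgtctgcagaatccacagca
GSTM1: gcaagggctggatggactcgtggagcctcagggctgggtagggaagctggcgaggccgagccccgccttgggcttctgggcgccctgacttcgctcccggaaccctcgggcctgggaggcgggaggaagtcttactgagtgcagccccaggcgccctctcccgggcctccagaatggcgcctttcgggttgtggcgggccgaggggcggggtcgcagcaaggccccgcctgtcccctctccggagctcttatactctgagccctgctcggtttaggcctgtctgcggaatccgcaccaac
GSTM3: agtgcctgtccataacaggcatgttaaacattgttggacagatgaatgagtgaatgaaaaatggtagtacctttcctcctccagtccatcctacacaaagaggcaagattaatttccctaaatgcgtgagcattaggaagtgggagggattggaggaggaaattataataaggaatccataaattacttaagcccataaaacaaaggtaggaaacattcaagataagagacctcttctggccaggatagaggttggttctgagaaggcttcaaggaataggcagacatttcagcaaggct
The match in GSTM2 reads AACCAGTT and begins at position -198 from the gene start. The full grainyhead palindrome AACCGGTT is contained in AACCNGTT and was searched as well. Of the 49 genes that rose besides GRHL1, 35 had a promoter window, and AACCNGTT was found in 1 of them (2.86%) and AACCGGTT in 0. Over the tested genes with a window, 202 of 9808 (2.06%) held AACCNGTT and 23 (0.235%) held AACCGGTT, so the share among rises was near that of all genes. The 5 genes that fell had windows for 3, with 0 matches. A match is only a run of letters, and no match says only that these letters are not in the window.

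AIF1L, which binds and bundles actin filaments, had the largest rise among genes above the limit on both empty vector arrays. It read 199 and 181 on the empty vector arrays and 1112 and 1117 on the GRHL1 arrays at probe ILMN_3246401, a log2 difference of 3.09 ± 0.12 (adjusted p = 2.87e-06). A second AIF1L probe read 103 and 94.0 with empty vector, below the limit, against 156 and 188 with GRHL1. In the list of actin-binding and cytoskeletal genes AIF1L was the 1 call among 22 tested members, and the list median was -0.01. The alpha-actinin gene ACTN4, with the next smallest p in that list, gave 0.33 ± 0.10 (adjusted p = 0.319).

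Among genes of the cell surface, CD24, a glycoprotein anchored by lipid, read 787 and 788 with empty vector and 3340.4 and 2750.1 with GRHL1 (2.04 ± 0.14, adjusted p = 0.000128). SLC44A2, a choline transporter-like protein, read 228 and 249.8 against 907 and 785 (2.17 ± 0.12, adjusted p = 3.2e-05). Both genes were above the limit on all 4 arrays. RHBDF1, an inactive rhomboid that guides the sheddase ADAM17 to the cell surface, lay below the limit with empty vector at 111 and 112 and read 412 and 349.9 with GRHL1, at least 2.96-fold higher (adjusted p = 1.25e-05). ERBB3, the neuregulin receptor, went from 121 and 124 to 176 and 176, at least 1.37-fold (adjusted p = 0.0167), while a second probe gave 0.40 ± 0.19. The receptor phosphatase gene PTPRF rose by 1.01 ± 0.14 and the semaphorin receptor gene PLXNA2 by 0.99 ± 0.16. A second PLXNA2 probe read 119 and 129 with empty vector against 112 and 109 with GRHL1, where both arrays were below the limit. Log2 rises were also measured for KCNG1, a modifier subunit of potassium channels (0.85 ± 0.10), for LRP10 of the LDL receptor family (0.81 ± 0.10) and for the copper transporter gene SLC31A2 (0.78 ± 0.14). NHERF1, a scaffold that links membrane proteins to ezrin, went from 611 and 546 to 1142 and 1083 (1.03 ± 0.10, adjusted p = 0.00151).

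A few of the rises were in genes known from epithelia. The epithelial lists, written with earlier results of these data known and given further on, had medians between -0.14 and 0.06. JUP, or plakoglobin, a plaque protein of desmosomes and adherens junctions, read 307 and 338 with empty vector and 681 and 641 with GRHL1 (1.22 ± 0.12, adjusted p = 0.00146). Its 2 other probes lay below the limit with empty vector and read 179 and 152, and 142 and 138, with GRHL1. CNFN, or cornifelin, a protein of the cornified envelope, went from 120.5 and 130.5 to 192 and 189 (1.07 ± 0.11, adjusted p = 0.00182), with 1 empty vector array above the limit. OVOL2, a zinc finger repressor that holds cells in an epithelial state, lay at 88.0 and 97.9 with empty vector and at 138 and 134 with GRHL1, at least 1.06-fold higher (adjusted p = 0.0119). CLIC3, a member of the chloride intracellular channel family, passed the test with 93.8 and 94.6 against 124 and 129 (adjusted p = 0.0263), but with GRHL1 it was above the limit on 1 array, so no fold is given. The tight junction gene CGN read 441 and 461 against 833 and 725 and missed the threshold (0.88 ± 0.16, adjusted p = 0.0600). CDH1 and the keratin genes KRT5, KRT14 and KRT8 lay below the limit on all 4 arrays, and KRT19 gave -0.27 ± 0.15 (adjusted p = 0.685).

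Several rises were in genes of transcription and growth control, among them TEAD3, CEBPA and RGCC, while the cell cycle inhibitor gene CDKN2B fell. TEAD3, a DNA-binding partner of YAP and TAZ, read 119 and 112 with empty vector and 204 and 168 with GRHL1, at least 1.44-fold higher (adjusted p = 0.00436). CEBPA, a differentiation factor of the C/EBP family, went from 149 and 134 to 209 and 208 (0.92 ± 0.14, adjusted p = 0.0167). RGCC, a regulator of the cell cycle, went from 118 and 111 to 206 and 217, at least 1.65-fold (adjusted p = 0.000999). In these genes the lower GRHL1 array was above the higher empty vector array by more than either replicate pair differed, which the calls favour. GADD45G, of the growth arrest and DNA damage family, rose by 0.95 ± 0.15 and SERTAD4 by 0.75 ± 0.11. NDRG1, a stress- and hypoxia-inducible gene of the N-myc downstream regulated family, went from 153 and 164 to 423 and 365 (1.83 ± 0.25, adjusted p = 0.0125).

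Several rises were in genes of lysosomes, endosomes and vesicle transport, a grouping made after the values were seen. NPC2, the soluble cholesterol carrier of the lysosome, read 393 and 400.3 with empty vector and 771 and 759 with GRHL1 (1.08 ± 0.11, adjusted p = 0.00152). RAB31, a small GTPase of the Golgi and endosomes, read 539 and 526 against 1258 and 1169 (1.30 ± 0.11, adjusted p = 0.000625). Cathepsin H (CTSH) went from 241 and 273 to 453 and 468 (1.05 ± 0.14), although a second probe near the limit gave 0.07. The acid sphingomyelinase gene SMPD1 rose by 0.82 ± 0.13, the arylsulfatase gene ARSD by 0.82 ± 0.12 and the serine carboxypeptidase gene SCPEP1 by 0.80 ± 0.11 on the log2 scale. A second ARSD probe was below the limit on all 4 arrays. ARHGEF3, an exchange factor for RhoA, rose by 1.32 ± 0.12 (adjusted p = 0.00134), and the endophilin gene SH3GLB2 by 0.77 ± 0.11. EPN3, an endocytic epsin, was at least 1.72-fold and CAVIN1, a coat protein of caveolae, at least 1.35-fold higher, both below the limit with empty vector.

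Secreted proteins and enzymes completed the rises. MGP, the vitamin K-dependent inhibitor of calcification, read 1008 and 1107 with empty vector and 4837 and 4203 with GRHL1 (2.17 ± 0.22, adjusted p = 0.00202), and its second probe gave 2.44. It was the 1 call among 23 members of the extracellular matrix list, whose median was -0.06. The complement gene C7 rose by 1.19 ± 0.16 and the endonuclease gene DNASE1 by 0.79 ± 0.10. The prostatic acid phosphatase gene ACP3 went from 122 and 126 to 247 and 216, at least 1.80-fold higher (adjusted p = 0.000673). ALDH3B2, an aldehyde dehydrogenase, read 124 and 87.7 against 278 and 259, at least 2.09-fold (adjusted p = 0.0119), and was the 1 call among 15 aldehyde dehydrogenases. The phospholipase D-like gene GDPD3 was at least 1.5-fold higher. EFHD1, a calcium-binding protein of mitochondria, was at least 1.62-fold higher, from 95.1 and 107 to 202 and 213 (adjusted p = 0.00436). The interferon-inducible GTPase gene GBP4 was at least 1.55-fold higher and NCKAP5 at least 1.16-fold. The heme-binding gene HEBP1 rose by 1.19 ± 0.15, the calpain gene CAPN5 by 0.87 ± 0.10, the calcium-binding gene S100A11 by 0.80 ± 0.13 and PGM2L1, which makes glucose 1,6-bisphosphate, by 0.78 ± 0.13. SOWAHA, an ankyrin repeat protein, went from 236 and 271 to 920.4 and 752 (2.04 ± 0.30, adjusted p = 0.0173). HSPB1, the small heat shock protein, was bright throughout and went from 4858 and 5476 to 8038 and 7914 (0.64 ± 0.10, adjusted p = 0.0229).

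Of the 50 rises, 34 were above the detection limit on both empty vector arrays and 15 were below it on both. Of the 12323 genes tested, 1009 were below the limit on both, and 15 of these (1.49%) rose. Among the 10158 genes above the limit on both empty vector arrays, 34 rose and 5 fell. The detection filter counts arrays of both plasmids, so a gene silent with empty vector enters the test more easily if it is bright with GRHL1.

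**Figure D2:**
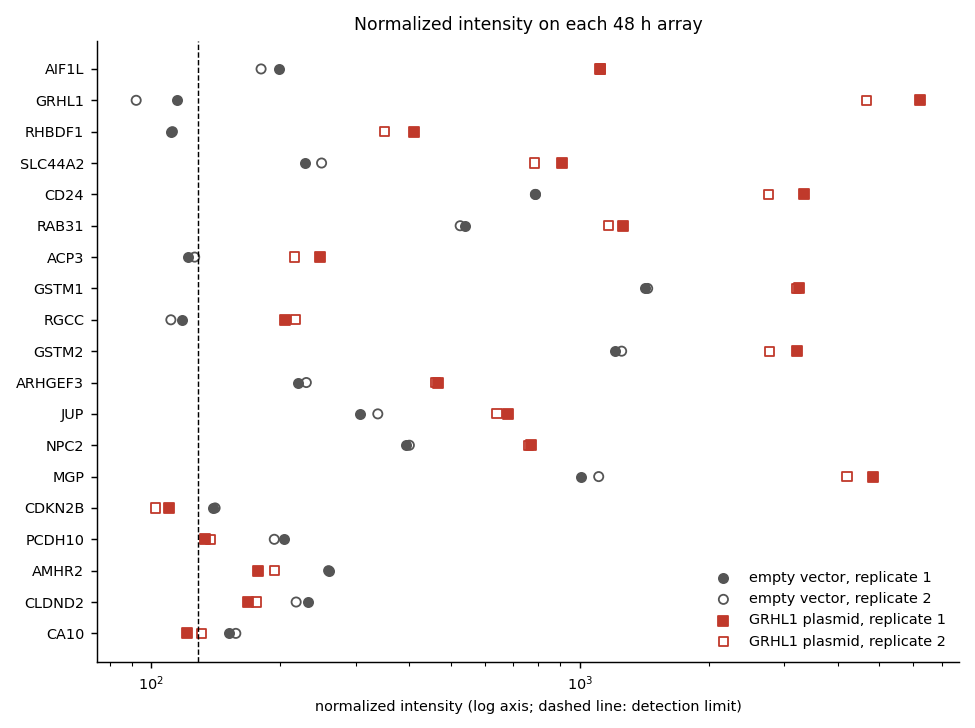
Normalized intensity (log axis) on each of the 4 arrays at 48 h, with empty vector as grey circles and GRHL1 plasmid as red squares, filled for replicate 1 and open for replicate 2. The upper 14 genes are the rises that passed under all 13 alternative settings and the lower 5 are the falls. The dashed line is the limit of 128.4. In every gene shown the 2 groups are apart, as in 39.3% of all genes tested, and the calls favour it.

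The 5 falls differed from one another. CDKN2B, which encodes the CDK4 and CDK6 inhibitor p15, read 139.5 and 141 with empty vector and 110.1 and 102 with GRHL1, where both arrays were below the limit, at least 1.09-fold lower (adjusted p = 0.00591). Another CDKN2B probe was below the limit on all 4 arrays, at 109 and 117 against 122 and 114. PCDH10, a neural protocadherin, read 204 and 194 against 133 and 138 (-0.97 ± 0.15, adjusted p = 0.0229), and its second probe gave -0.12. AMHR2, the receptor of anti-Müllerian hormone, read 259 and 259 against 178 and 194 (-0.71 ± 0.12, adjusted p = 0.0388). Of the 5, PCDH10, AMHR2 and CLDND2 stayed above the limit on all 4 arrays. CLDND2, a claudin domain protein, read 232 and 218 against 168 and 176 (-0.60 ± 0.10, adjusted p = 0.0454). CA10, a catalytically inactive carbonic anhydrase relative that binds neurexins, read 152 and 158 against 121 and 131 (-0.60 ± 0.10, adjusted p = 0.0464).

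In 4 of the falls the level at 48 h differed from that at the other times with both plasmids. In GRHL1 cells CDKN2B read 123, 106 and 133 at 24, 48 and 72 h (group means, n = 2), and with empty vector 123, 140.3 and 125, with 24 h and the empty vector arrays of 72 h below the limit too. PCDH10 read 172, 199 and 159 with empty vector against 157, 135 and 148 with GRHL1, and CLDND2 199, 225 and 188 against 194, 172 and 207. For CA10 the means were 176, 155 and 186 with empty vector and 179, 126 and 175 with GRHL1, lowest at 48 h with both plasmids. AMHR2 differed in its course, at 257, 259 and 268 with empty vector against 193, 186 and 184 with GRHL1. The empty vector level at 48 h minus the mean of the other times was 0.44 ± 0.13 for PCDH10, 0.33 ± 0.09 for CLDND2, -0.37 ± 0.09 for CA10 and -0.02 ± 0.10 for AMHR2 on the log2 scale. With GRHL1 the same measure was -0.33 ± 0.13, -0.35 ± 0.09, -0.91 ± 0.09 and -0.03 ± 0.10 in that order. The choice of falls by their 48 h value favours a high empty vector level and a low GRHL1 level at that time. The part of these shifts in the falls was not tested.

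**Figure D3:**
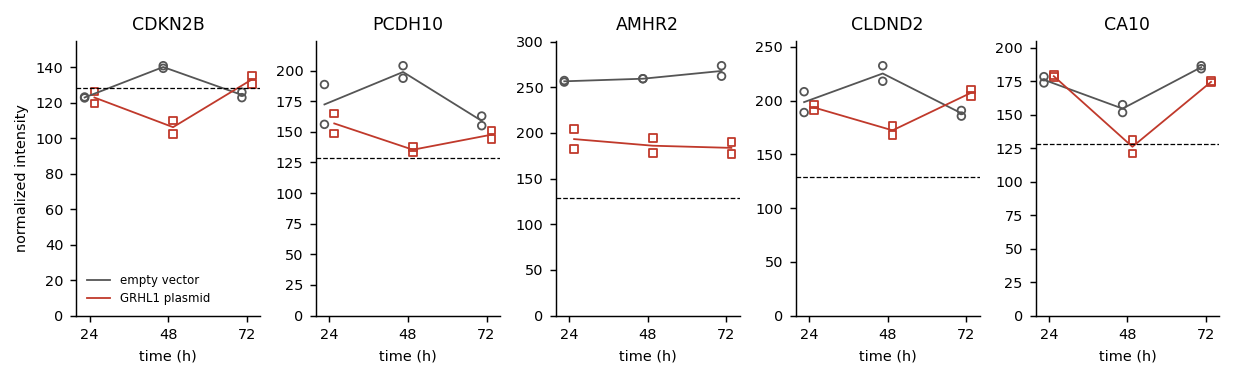
Normalized intensity (vertical) against time after transfection in h (horizontal) for the 5 genes called lower at 48 h, with both arrays of each plasmid as open symbols, lines through the means and the limit of 128.4 dashed. The lines of AMHR2 stay apart at every time, while those of CDKN2B, CLDND2 and CA10 meet or cross at 24 h or 72 h.

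The arrays of 24 h and 72 h were not used in the 48 h differences and gave a second measurement of the same genes, although each gene's spread was estimated from all 12 arrays. Of the rises, 32 were above the limit on all 6 empty vector arrays of the series. All 32 had a positive difference at 24 h and at 72 h, where 54.7% and 46.2% of all genes tested did. Their median log2 difference was 0.74 at 24 h, 1.00 at 48 h and 0.90 at 72 h. The choice of genes by their 48 h value favours the highest median at that time. Of the 50 rises, 29 (58.0%) also passed the test at 24 h and 29 (58.0%) at 72 h. These are 61.7% of the 47 genes higher at 24 h and 76.3% of the 38 higher at 72 h, where 0.381% and 0.308% of the genes tested were called higher. At 72 h 2 genes (0.0162%) were called lower. Of the 5 falls, 3 had a negative difference at 24 h and 3 at 72 h. Only AMHR2 among them passed at another time, with -0.79 at 72 h (adjusted p = 0.0283).

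The test of a change between 24 h and 48 h was passed by 1 rise. AIF1L gave 1.52 at 24 h, 3.09 at 48 h and 3.30 at 72 h, and its 48 h difference exceeded that of 24 h by 1.57 ± 0.17 (adjusted p = 0.0411). It was the only gene of 12323 to pass (0.00811%), with 724 genes (5.88%) at an unadjusted p under 0.05. GSTM1 (0.36, 1.21 and 1.21), GSTM2 (0.41, 1.32 and 1.14), CTSH (0.28, 1.05 and 1.29) and S100A11 (0.22, 0.80 and 0.78) had small values at 24 h and larger ones later. Their changes from 24 h to 48 h did not pass the test (adjusted p = 0.547, 0.618, 0.740 and 0.755). ARHGEF3 (1.37, 1.32 and 1.26) and SOWAHA (2.09, 2.04 and 2.19) stayed within 1 SE of their 48 h value.

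A difference particular to 48 h was tested against the mean of the 24 h and 72 h differences. With limma 0 genes passed, and 595 of 12323 (4.83%) had an unadjusted p under 0.05, 188 with a higher and 407 with a lower 48 h difference. The smallest p belonged to CDKN2B (adjusted p = 0.301), whose levels are given above. The olfactory receptor gene OR2A1 followed (adjusted p = 0.423), with 143 and 136 on the empty vector arrays of 48 h and all other groups below the limit. CLDND2, measured above the limit on every array, had a 48 h difference that lay -0.68 ± 0.13 from the other times (adjusted p = 0.746). Among genes with a more positive value at 48 h, AMY1B, an amylase gene with near-identical copies, gave 0.72 ± 0.14. GBP4 and STEAP1, a gene of the STEAP family, were below the limit on the empty vector arrays of 48 h and are given no size. No gene is therefore shown to change at 48 h alone. The test of 48 h against 72 h also gave 0 calls, with 523 genes (4.24%) at an unadjusted p under 0.05.

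**Figure D4:**
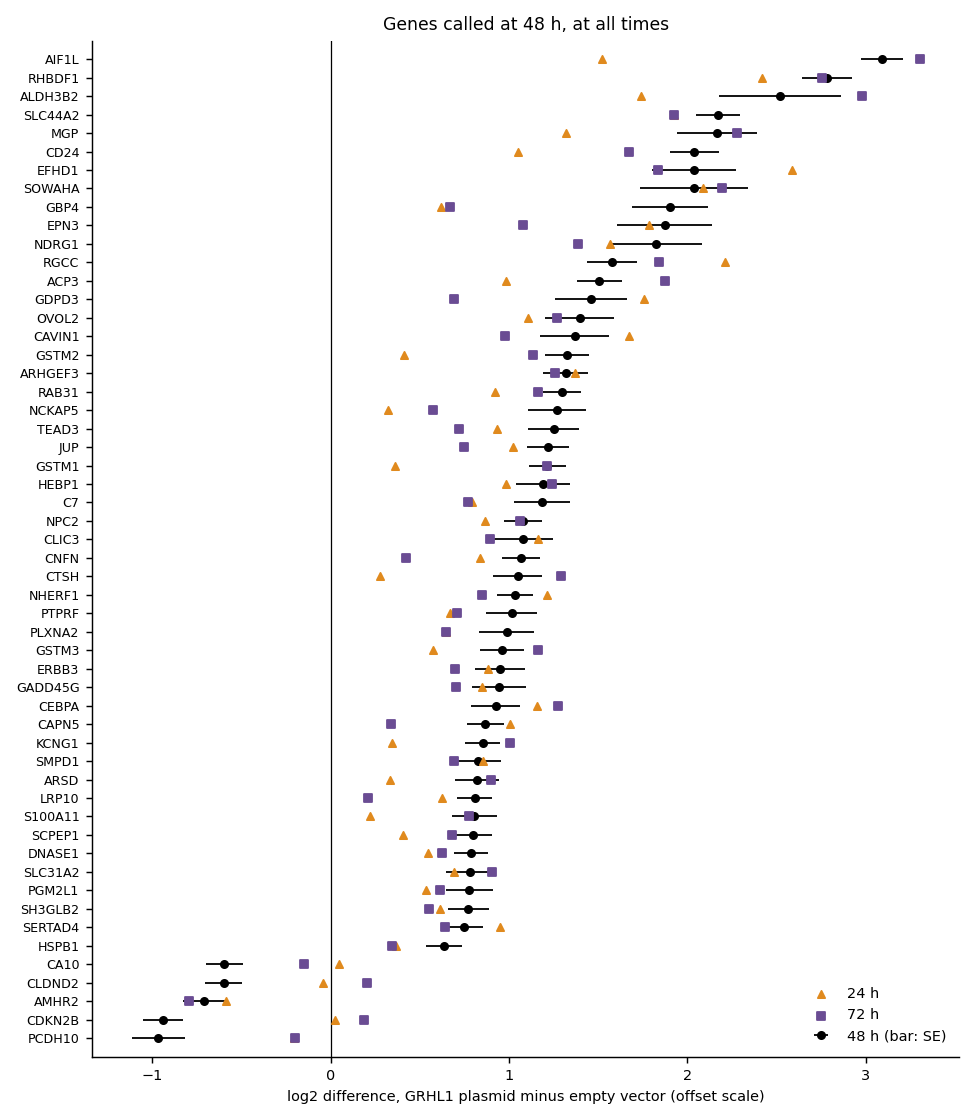
Log2 difference (GRHL1 plasmid minus empty vector, horizontal, fitted, also for genes below the limit with empty vector) of the genes called at 48 h, GRHL1 itself left out, at 24 h (triangles), 48 h (black points with SE) and 72 h (squares). All rises lie right of 0 at every time, AIF1L moves from 1.52 to 3.09 between 24 h and 48 h, and of the falls AMHR2 keeps its size.

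For 15 of the 55 called genes other probes also passed the detection filter, 16 probes in all. Of these 14 had the direction of the main probe, 10 with an unadjusted p under 0.05, and 5 passed adjustment over the 16501 probes tested, where 0.382% of probes were called. The exceptions in direction were the second probes of PLXNA2 and CDKN2B. In 15 of 16 the difference was smaller than at the main probe, the exception being MGP. The main probe was the brightest of its gene, and for 40 called genes it was the only probe that passed the filter.

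The gene lists held few calls at 48 h. Of 30 lists, 13 had a called member and 17 had none, and the medians of the 17 lay between -0.20 and 0.12 on the log2 scale, against -0.03 over all genes. Of all genes tested 0.406% rose and 0.0406% fell, and no list was tested against these shares. In the epithelial junction list 2 of 11 tested members rose (OVOL2 and ERBB3) and 0 fell, with a median of -0.04. Among 13 genes of desmosomes, keratins and the cornified envelope 1 rose, JUP, with a median of 0.06. The lists do not hold every gene of a class. The rise CNFN was not a member of this list, nor GBP4 of the interferon list. The list of NRF2 targets and glutathione genes had 3 rises among 20 members, GSTM1, GSTM2 and GSTM3, a median of 0.00 and 0 falls. Single rises were NDRG1 among 31 hypoxia and glycolysis genes, HSPB1 among 13 chaperones and ERBB3 among 16 receptor tyrosine kinases and ligands and as the 1 tested member of the glial list. Cyclin-dependent kinase inhibitors and p53 targets had 1 rise (RGCC) and 1 fall (CDKN2B) among 15. Protocadherins, contactins and neural adhesion genes had 2 falls among 12, PCDH10 and CA10, with 6 positive differences and a median of 0.00. AMHR2 was the 1 fall among 21 receptors and mediators of the TGF-beta superfamily.

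Genes of neuronal and adrenergic identity gave 0 calls, with 26 and 24 members tested. Of all genes tested 0.446% were called, so 0 calls in lists of this length, here and below, is near that share. The neurofilament gene NEFM read 5345 and 5314 with empty vector and 4035 and 4129.7 with GRHL1 (-0.39 ± 0.09, adjusted p = 0.131), and the growth cone gene GAP43 gave -0.29 ± 0.12 (adjusted p = 0.571). The monoamine transporter gene SLC18A1 gave -0.29 ± 0.12 (adjusted p = 0.550). MYC and MYCN targets had 0 calls among 31, with PTMA at 0.46 ± 0.12 and POLR1B at -0.39 ± 0.10. G2/M and mitosis genes had 0 calls among 30 and a median of -0.09, with 5 positive differences, where 43.3% of all genes were positive. Cholesterol and fatty acid synthesis genes also had 0 calls, among 25, with 21 positive differences and a median of 0.12. The members with the smallest p, SREBF1 and ELOVL6, gave 0.34 ± 0.17 and 0.32 ± 0.12. Among other lists without a call, the members with the smallest p gave 1.29 ± 0.33 for the cadherin gene CDH11, 0.61 ± 0.12 for the immediate early gene IER2, 0.63 ± 0.23 for the interferon-stimulated gene OAS1 and 0.32 ± 0.10 for PHGDH, the first enzyme of serine synthesis. Their adjusted p-values ran from 0.0848 to 0.484. The BH3-only gene HRK read 156 and 166 with empty vector against 121 and 124 with GRHL1, below the limit, at least 1.25-fold lower without passing (adjusted p = 0.151). Among other cell type lists, fibroblast markers had 0 calls among 8 and a median of -0.20, with S100A4 at -0.39 ± 0.10, and the keratinocyte list 0 among 3.

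**Figure D5:**
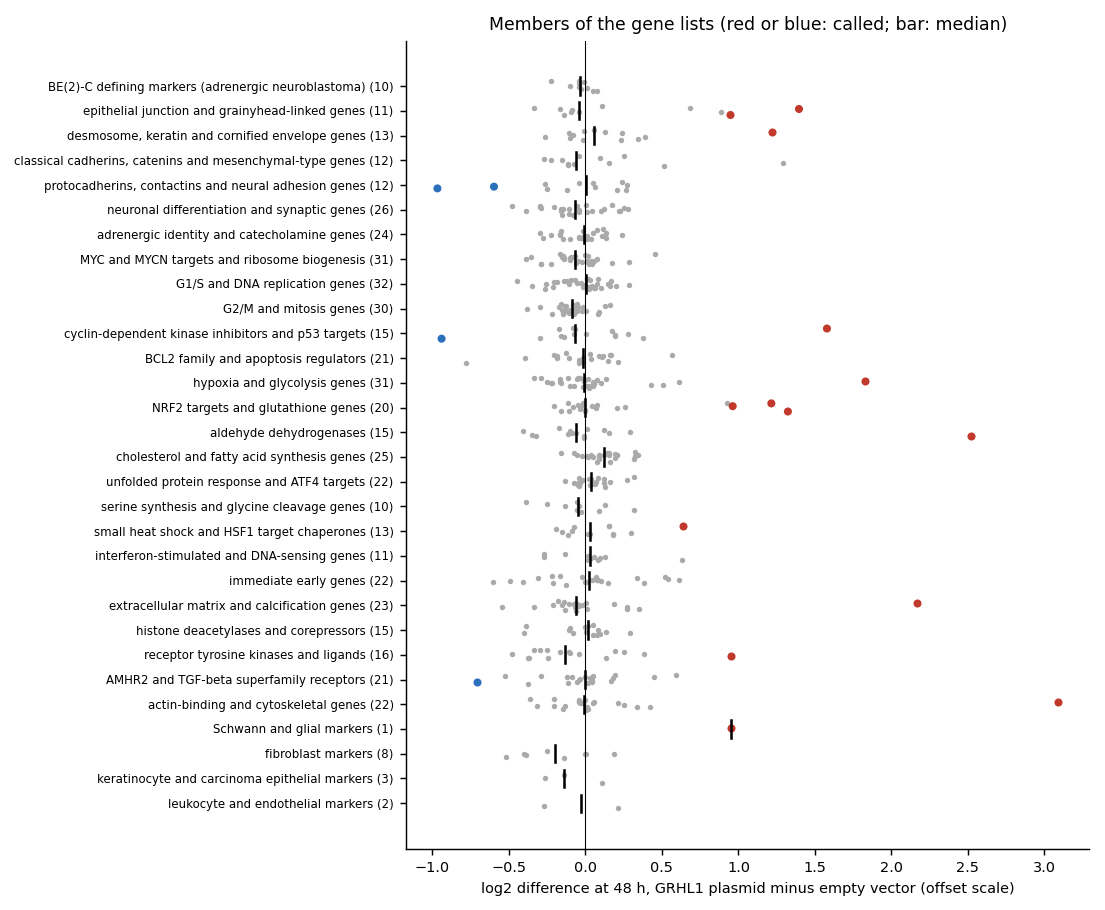
Log2 difference at 48 h (GRHL1 plasmid minus empty vector, horizontal) of every tested member of the 30 gene lists, with the number tested in brackets, called members in red (higher) or blue (lower) and the list median as a bar. Most members lie near 0, and single members such as AIF1L at 3.09 and MGP at 2.17 stand far from the medians of their lists.

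Just outside the threshold, the 8 genes with a positive difference and the smallest p had adjusted p-values from 0.0536 (ACOT4, an acyl-CoA thioesterase) to 0.0600 (CGN). TMEM54 read 101 and 123 with empty vector and 250.3 and 240.3 with GRHL1, and the actin-sequestering gene TMSB4X read 5477 and 5562 against 7982 and 9297. Of these 8, 7 were positive at both other times. Over all genes tested, 54.7% were positive at 24 h and 46.2% at 72 h. The 8 negative differences nearest the threshold ran from OR2A1 (adjusted p = 0.0569) to SNORD96A, a small nucleolar RNA (adjusted p = 0.0916). On both GRHL1 arrays 5 of them were below the limit, and 4 were negative at both other times. All 8 had their lowest difference at 48 h, which their choice by the 48 h value favours. They include ISLR (149 and 152 against 115 and 108), CNMD, or chondromodulin (148 and 143 against 107 and 113), and DNAJC19, of the mitochondrial import machinery (343 and 342 against 251 and 263).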

How the data were processed

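BE(2)-C cells were profiled on 12 Illumina BeadChip arrays, 2 for each plasmid and time, and titles gave each array its group and replicate number. The authors deposited scanner intensity and normalized intensity for 47323 probes, both linear. Per the file headers, a detection p-value stands beside every scanner value. How the normalization was done the sources used here do not say. Normalized array medians ran from 119.7 to 121.0. Of 12 scanner columns, 7 matched a normalized column of another sample name, so the normalized names were used.

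Detection was counted over all scanner arrays as p under 0.01 with a signal above background. The normalized intensity was background-corrected (limma normexp, offset 16) and put on the log2 scale. The fit used 16501 probes that name 1 gene and were detected on 2 or more of 12 arrays, with the brightest standing for its gene, which left 12323. The limit of 128.4 is the level below which 95% of undetected probes lay. Where all arrays of a group were below it, folds are bounds of the other group's intensity over the limit. For 1 missing value the probe median was used. Names came from the platform annotation and a RefSeq table.

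The test was limma (lmFit over 6 groups, eBayes) with Benjamini-Hochberg adjustment over all genes. It was also run on simulated data with independent normal noise. That run cannot show whether the p-values hold for technical replicates or near the limit. SE is limma's moderated standard error. Members and the 30 gene lists (716 entries, 491 genes tested) were chosen with earlier results of these data known. The genes named are the series title's 3, every gene called at 48 h, and a part of the sets that follow. These are the 8 nearest the threshold in each direction and the 6 with the smallest p in each direction against the other times. Up to 4 called members of a list (otherwise up to 2 with the smallest p) and cell type markers complete the sets. Fits ran in limma 3.58.1 under R 4.3.3. Tables and plots used matplotlib 3.10.9, scipy 1.17.1, pandas 2.3.3 and numpy 2.4.6 under Python 3.11.15.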

Additional observations from a re-analysis of the deposited data

Results flagged for a closer look

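AIF1L was marked because its GRHL1 difference was not the same at each time by a test of the change itself. The log2 difference at 48 h exceeded that at 24 h by 1.57 ± 0.17 (SE, limma, 2 arrays in each of 4 groups, adjusted p = 0.0411 over 12323 genes). With empty vector AIF1L read 203 and 207 at 24 h and 199 and 181 at 48 h. With GRHL1 it read 494 and 429 at 24 h and 1112 and 1117 at 48 h. The test of this change was not repeated under the alternative settings.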

How the results depend on the processing

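The 55 calls kept their direction in all 713 values under the 13 alternatives that use the normalized names, and 14 genes were called under each of them. The numbers of calls moved. Without background correction 95 genes were higher and 14 lower, with offset 50 76 and 10, and with variance trend and robust estimates 105 and 19. From the 4 arrays of 48 h alone there were 21 and 0, and without a detection filter 32 and 2. Quantile normalization gave 57 and 3, the mean of all detected probes 51 and 3, and detection on 4 or more arrays 62 and 7. Leaving out single arrays gave 19 to 28 higher and 0 to 4 lower. The cause of each shift was not tested. Fits without single arrays and the fit of 4 arrays also used fewer arrays. With the replicate number as a block for same-numbered arrays of a time 32 were higher and 1 lower, and 31 of these calls were shared with the 55. Deviations of same-numbered arrays correlated with r = 0.11, 0.02 and 0.03 at 24, 48 and 72 h, so the numbers were not taken as pairs. The scanner table with its own names gave 1 higher and 3 lower and turned GRHL1 to -3.88, since 3 of its 4 columns named 48 h match arrays of another group. Other values that changed sign, in genes that were not called, were MYCN, HDAC3 and CD68 when single arrays were left out and EPCAM with the mean of probes (0.105). MYCN ranged from -0.0851 to 0.00383, HDAC3 from -0.0916 to 0.0949 (-0.06 without GRHL1 replicate 2) and CD68 from -0.0773 to 0.497. The test of 48 h against the other times gave 0 calls without background correction and with the replicate block. It also gave 0 with variance trend and robust estimates, and without a detection filter. Its counts with offset 50, quantile normalization, detection on 4 or more arrays and the mean of probes are not given here. With 2 arrays a group, genes near the limit of 128.4 have wide errors, with a median SE of 0.21 below it on both empty vector arrays against 0.14 over all genes.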
